A study of Mus musculus with 2 samples.

Results

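The 9 genes described here encode proteins of the basement membrane, the thin sheet of extracellular matrix that underlies epithelia such as the early neural plate and the optic vesicle. They were taken by symbol from the 27998 genes that both deposited tables list: the laminin chains Lama1, Lama5, Lamb1 and Lamc1, the nidogens Nid1 and Nid2, the perlecan core protein gene Hspg2, the collagen-binding glycoprotein gene Sparc and the fibronectin gene Fn1. Each was found on 1 line. The cells came from organoid cultures of a mouse embryonic stem cell line, heterozygous for a green fluorescent protein knockin at the eye field gene Rax, and both days shared this genotype and the same culture. Cells were taken at culture day 4, the stage of the early eye field, and at day 6, the stage of early optic vesicle evagination, and 3 biological experiments were pooled into 1 library per day. Per the methods of the study the culture medium received Matrigel, a basement membrane extract rich in laminin protein, so the organoids also met matrix that their own transcripts do not account for.

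Laminins are trimers of 1 α, 1 β and 1 γ chain. The trimer of Lama1, Lamb1 and Lamc1 products is the first laminin of the embryo and a main product of primitive and parietal endoderm, whereas the Lama5 product is the α chain of many later epithelia. Laminin polymerises on the cell surface, nidogens and perlecan tie it to the collagen IV network, and SPARC binds collagen IV and is a major product of parietal endoderm. Fibronectin is a matrix glycoprotein that early embryos deposit next to the laminin sheet.

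Unique molecular identifiers (UMIs) were counted per gene and cell, and each group of cells was pooled and scaled to CPM, the usual per-1000000 scale of its UMIs. The 8147 day 4 cells and 6640 day 6 cells that passed the filter held 98643495 and 87794318 UMIs, with medians of 11216 and 12515.5 per cell. The 9 genes took 0.0256% of the day 4 UMIs and 0.0552% of the day 6 UMIs. Between the files, 91 barcodes were shared. With 1 library per day no test between days was possible, and all 95% intervals cover counting error only. A gene counted as measured at a mean of at least 10 CPM in the groups compared, and as higher or lower by size at a ratio of at least 1.5, or its inverse, with an interval that left out 1.

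Cells were grouped by their raw UMIs, in this order: at least 3 UMIs of Gata4, Gata6 and Sox17 together (endoderm-factor cells), at least 2 of Sox10, a neural crest gene, at least 5 of Dppa5a, a pluripotency gene, at least 2 of Six6, an eye field gene, at least 2 of Fezf2, a forebrain gene, and at least 2 of Fgf5, an epiblast gene. On day 4 this gave 40 endoderm-factor, 0 Sox10, 2145 Dppa5a, 26 Six6, 101 Fezf2 and 2911 Fgf5 cells, and 2924 cells met no rule. On day 6 it gave 136, 25, 586, 1982, 720 and 26 cells in the same order, and 3165 met no rule. The labels call the cells retina progenitors, but Six6 cells made up 0.319% of the day 4 cells and 29.8% of the day 6 cells. In the endoderm-factor cells all 10 further markers of extraembryonic endoderm, among them Dab2, Cubn, Amn, Pth1r and Srgn, were at 10 CPM or more on both days, and their sum was 4677 CPM on day 4 and 3986 CPM on day 6. Of the definitive endoderm genes, Gsc and Foxa1 were at 0 on both days and Cer1 stood at 1.76 and 0 CPM. All 5 mesoderm and all 6 mesenchyme markers were at 0 on day 4 and summed to 1.13 and 5.09 CPM on day 6. However, 33 of the 40 and 81 of the 136 endoderm-factor cells also met the Dppa5a rule. Dppa5a itself stood at 2169 and 1630 CPM in these cells, beside 2431 and 4679 CPM in the Dppa5a cells. The 7 further pluripotency markers summed to 214 and 281 CPM in the endoderm-factor cells and to 516 and 694 CPM in the Dppa5a cells. Of these, Klf4 was higher in the endoderm-factor cells (121 and 224 CPM, against 6.63 and 21.04 CPM) and the other 6 were lower on both days, among them Tdgf1 (19.3 and 10.8 CPM, against 315 and 283 CPM) and Zfp42 (52.7 and 36.8 CPM, against 138 and 239 CPM). Whether the endoderm-factor cells were single cells was not tested.

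For 3 of the genes with a RefSeq window, the stretch before the transcription start is shown because they differed plainly in which cells held their transcripts: Lamb1 and Nid1 were at least 43.0 times higher in endoderm-factor cells on both days, Lama5 only about 2 times. They are RefSeq sequences of GRCm38.p6, given 5′ to 3′ on the strand of the gene and ending before the first base that RefSeq or GENCODE M21 annotates as transcribed, and capitals mark GC boxes (GGGCGG on either strand). The stretches are chr12:31265043-31265233 (+) for Lamb1, chr13:13437352-13437550 (+) for Nid1 and chr2:180225860-180226109 (-) for Lama5.
Lamb1: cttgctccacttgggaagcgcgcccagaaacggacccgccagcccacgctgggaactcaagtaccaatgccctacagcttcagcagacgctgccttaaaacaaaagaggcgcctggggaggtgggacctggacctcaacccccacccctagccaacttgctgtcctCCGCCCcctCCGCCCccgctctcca
Nid1: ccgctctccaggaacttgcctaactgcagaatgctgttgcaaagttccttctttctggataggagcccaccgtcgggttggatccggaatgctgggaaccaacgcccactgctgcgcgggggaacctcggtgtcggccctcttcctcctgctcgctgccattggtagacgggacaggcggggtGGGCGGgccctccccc
Lama5: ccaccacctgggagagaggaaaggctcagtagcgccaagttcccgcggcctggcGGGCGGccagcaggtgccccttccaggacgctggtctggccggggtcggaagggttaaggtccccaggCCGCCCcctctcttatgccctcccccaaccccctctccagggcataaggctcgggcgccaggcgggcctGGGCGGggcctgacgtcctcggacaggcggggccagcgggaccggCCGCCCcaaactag

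RefSeq windows of 250 bases before the start were at hand for 5 of the 9 genes, the other two being Hspg2 and Sparc, and Lama1, Lamc1, Nid2 and Fn1 had none. None of the 5 held a GATA site, searched on both strands as AGATAA, as TGATAA, as AGATAG and as TGATAG, which 26.5% of all 32851 such windows held. None held ATTGTT, a SOX core searched on both strands (9.42% of windows), or TATAAA (12.4%). GC boxes, found in 32.7% of windows, numbered 4 in Lama5, 5 in Hspg2, 2 in Lamb1, 1 in Nid1 and 0 in Sparc. The Sparc window ends 3103 bases inside the gene as GENCODE draws it. A missing match says only that these letters are not in these windows.

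In GENCODE M21 on GRCm38, the build of the files, the laminin genes are Lama1 at chr17:67697259-67822647 (+), Lama5 at chr2:180176373-180225859 (-), Lamb1 at chr12:31265234-31329644 (+) and Lamc1 at chr1:153218922-153332786 (-). The nidogen genes are Nid1 at chr13:13437551-13512269 (+) and Nid2 at chr14:19751265-19811787 (+), and the others are Hspg2 at chr4:137468769-137570630 (+), Sparc at chr11:55394500-55423183 (-) and Fn1 at chr1:71585520-71653200 (-). The 9 genes thus lie on 8 chromosomes, with Lamc1 and Fn1 both on chromosome 1.

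The whole libraries answered how the transcripts changed from the eye field stage to the start of evagination. Of the 8 measured genes, 4 were higher on day 6 by size, 1 was lower and 3 were within the limit, beside 13.3% of all 6700 measured genes higher and 6.28% lower. Lama1 stood below 10 CPM on day 4 and Lama5 on day 6, so each was measured only through the other day. Lama1 rose from 7.49 CPM (95% interval 6.96 to 8.05) to 33.2 CPM (32.0 to 34.4), a ratio of 4.43 (4.09 to 4.81). Sparc rose from 129.5 to 360.4 CPM (ratio 2.78, 2.73 to 2.84), Lamb1 from 25.5 to 51.4 CPM (2.01, 1.92 to 2.12) and Lamc1 from 16.5 to 31.6 CPM (1.92, 1.81 to 2.04). Thus all 3 chains of the embryonic laminin were higher on day 6, and the α chain most. The other α chain was not: Lama5 stood at 12.4 and 9.68 CPM, a ratio of 0.780 (0.714 to 0.852).

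The nidogens went opposite ways. Nid2 fell from 22.7 to 13.2 CPM (ratio 0.581, 0.541 to 0.624), whereas Nid1 stood at 2.15 and 7.68 CPM, a ratio of 3.57 (3.06 to 4.19) at a mean below 10 CPM. Hspg2 stood at 12.01 and 10.9 CPM (0.905, 0.830 to 0.986) and Fn1 at 27.7 and 34.0 CPM (1.23, 1.16 to 1.29), both within the limit. The median log2 ratio was 0.62 over the measured members and 0.14 over all measured genes, and centring on the latter changed no call in the whole libraries. In summed libraries, more cells that express a gene and more transcripts per cell cannot be told apart, so the same genes were next read by cell group.

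**Figure D1:**
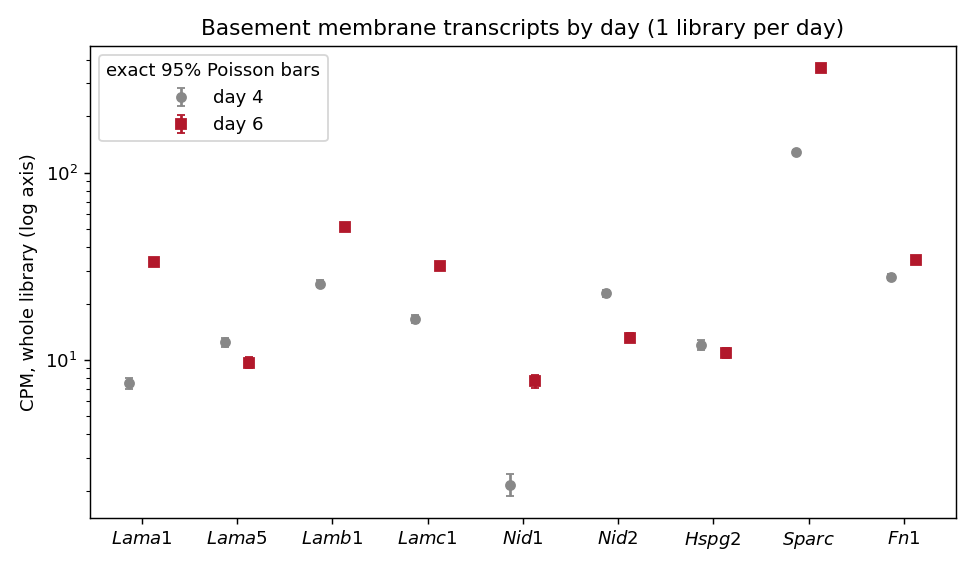
Level of each gene in the whole day 4 and day 6 library, in CPM on a log axis, with exact 95% Poisson intervals (smaller than the symbol for most genes). Lama1, Lamb1, Lamc1, Nid1 and Sparc lay higher on day 6 and Nid2 lay lower, with 1 library per day.

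The endoderm-factor cells held by far the most laminin transcripts per UMI. On day 6, Lama1 stood at 1249.7 CPM in them and at 8.24 CPM in all other cells, a ratio of 152 (139 to 165). Lamb1 stood at 1253 against 26.7 CPM (ratio 46.9, 44.2 to 49.7) and Lamc1 at 977 against 12.2 CPM (80.0, 74.0 to 86.4). All 3 chains of the embryonic laminin were thus more than 40 times higher in these cells. On day 4 the same cells stood at 961, 883 and 847 CPM for Lama1, Lamb1 and Lamc1, against 1.96, 20.6 and 11.6 CPM in the other cells. Lama5 separated the groups far less, at 18.7 against 9.50 CPM on day 6 (ratio 1.97, 1.34 to 2.78) and 24.6 against 12.3 CPM on day 4 (1.99, 1.09 to 3.36). That day 4 ratio rests on 14 UMIs and was 0.954 when only cells that met exactly 1 rule were used.

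The nidogens, Hspg2 and Sparc ranged between these extremes, and Fn1 had a lower ratio than Lama5 on each day. Sparc stood at 8409 CPM in the day 4 and 10373 CPM in the day 6 endoderm-factor cells, against 81.4 and 154.8 CPM elsewhere (ratios 103 and 67.0). Nid1 stood at 86.1 and 249.6 CPM against 1.66 and 2.71 CPM (51.8 and 92.2). Its paralog Nid2 was nearer, at 156 and 118 CPM against 21.9 and 11.02 CPM (7.14 and 10.7), as was Hspg2, at 142 and 102 CPM against 11.3 and 8.99 CPM (12.6 and 11.4). Fn1 did not separate the groups, at 33.4 against 27.7 CPM on day 4 (ratio 1.21, 0.725 to 1.89) and 27.2 against 34.1 CPM on day 6 (0.796, 0.586 to 1.06). On each day 8 of 9 genes were thus higher in endoderm-factor cells by size and Fn1 was within the limit, beside 28.5% of all measured genes higher and 12.6% lower on day 4 and 29.1% higher and 21.7% lower on day 6. In the other cells Lama1 and Nid1 stood below 10 CPM on both days, and Lama5 and Hspg2 on day 6. These genes were measured only through the endoderm-factor cells and could not have been called lower, so the counts are no support of their own.

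**Figure D2:**
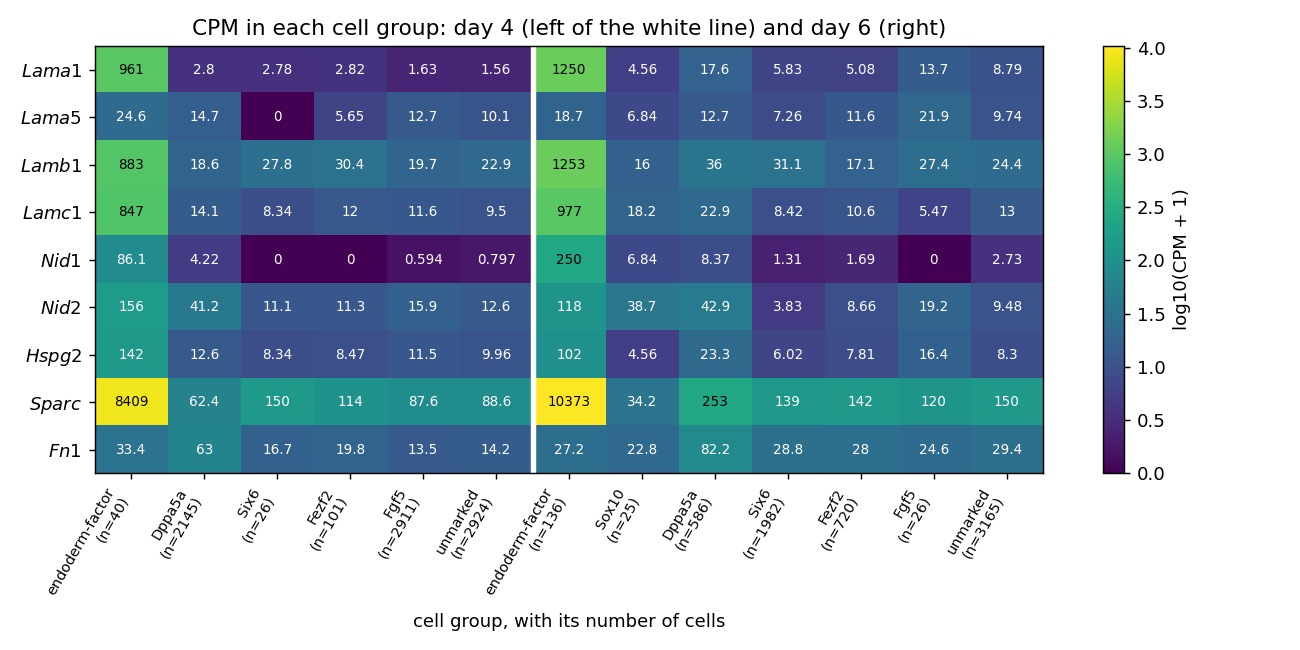
CPM of each gene (rows) in each cell group (columns, with the number of cells), day 4 left of the white line and day 6 right of it; colour is log10(CPM + 1). The endoderm-factor columns stand out for every gene but Lama5 and Fn1, and Fn1 is highest in the Dppa5a columns.

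Within the endoderm-factor cells most genes differed little between the days. Of the 9 genes only Nid1 was higher on day 6 by size (ratio 2.90, 2.16 to 3.98) and none was lower, beside 3.95% of all measured genes higher and 4.97% lower. Lamb1 had a ratio of 1.42 (1.29 to 1.57), Lama1 of 1.30 (1.18 to 1.43), Sparc of 1.23 (1.20 to 1.27) and Lamc1 of 1.15 (1.04 to 1.28), while Nid2 and Hspg2 stood at 0.753 and 0.720. Hence the balance of the nidogens shifted inside these cells: Nid1 made up 35.5% (27.6 to 44.1) of the nidogen UMIs on day 4 and 68.0% (64.2 to 71.5) on day 6. The balance of the α chains moved little, with Lama1 at 97.5% of the Lama1 and Lama5 UMIs on day 4 and 98.5% on day 6. Elsewhere that Lama1 share went from 16.0% to 58.1% in Dppa5a cells and from 13.4% to 47.4% in cells that met no rule. In Fezf2 cells it was 33.3% (of 12 UMIs) and 30.5%. The Nid1 share also rose outside these cells, from 9.29% to 16.3% in Dppa5a cells and from 5.94% to 22.4% in cells that met no rule. On day 6, however, 8 Dppa5a cells and 7 cells that met no rule held at least 5 Lama1 UMIs each. Together these 15 cells held 30.6% of the Lama1 and 15.5% of the Nid1 UMIs outside the endoderm-factor group. Their part in the rise of the 2 shares was not tested.

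Single cells showed the same picture with a wide spread. Per 10000 UMIs of a cell, Lama1 ranged from 0 to 26.4 with a median of 10.5 over the 40 day 4 cells, and from 0 to 44.1 with a median of 11.3 over the 136 day 6 cells. Sparc ranged from 0 to 236 (median 73.1) and from 0 to 355 (median 107). Nid1 had medians of 0.605 and 1.85, and the medians of Lama5 and Fn1 were 0 on both days. After each cell was thinned to 5000 UMIs, Lama1, Lamb1 and Lamc1 were found together in 33 of 40 endoderm-factor cells on day 4 (82.5%, 67.2 to 92.7) and in 114 of 136 on day 6 (83.8%, 76.5 to 89.6). Among Six6 cells 1 of 1982 held all 3, and among day 4 Fgf5 cells 0 of 2877, which allows a share of up to 0.104% (taken as 3 counts).

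**Figure D3:**
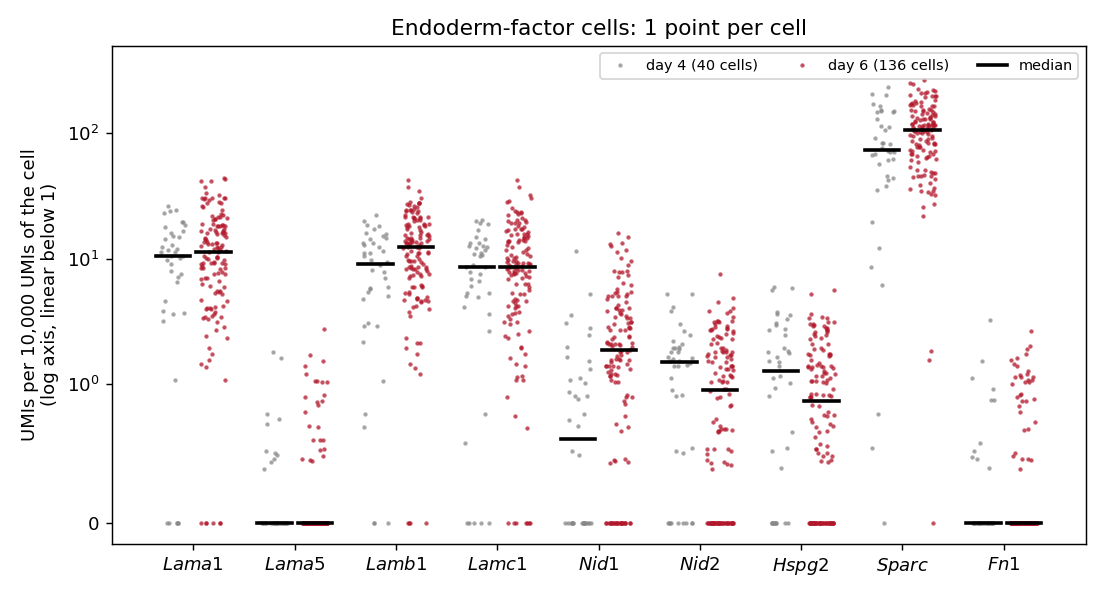
UMIs of each gene per 10000 UMIs of the cell in the endoderm-factor cells, 1 point per cell (40 on day 4, 136 on day 6), bars at the medians, on an axis that is linear below 1 and log above. The days overlap for every gene, the Nid1 median moved from 0.605 to 1.85, and Lama5 and Fn1 have medians of 0.

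Lama1 was also read by the number of endoderm-factor UMIs in a cell. On day 6 it stood at 5.47 CPM in the 6421 cells with 0 such UMIs, 73.7 CPM in the 66 cells with 1, 1147 CPM in the 17 cells with 2, 1037 CPM in the 35 cells with 3 or 4 and 1310 CPM (1250 to 1372) in the 101 cells with 5 or more. On day 6 the intervals just outside and just inside the limit of 3 overlapped (984 to 1330 and 938 to 1143), whereas on day 4 Lama1 stood at 160 CPM in the 6 cells with 2 such UMIs and 467 CPM in the 9 cells with 3 or 4. Fn1 stood between 23.9 and 42.3 CPM in the same 5 classes of day 6 cells. Of the cells with at least 5 Lama1 UMIs, 32 of 35 on day 4 and 114 of 129 on day 6 were endoderm-factor cells. The other 3 and 15 cells stood at 1810 and 1782 CPM of Srgn, beside 1626 and 1564 CPM in the endoderm-factor cells, and the 15 held 30.6% of the Lama1 UMIs that lay outside the group on day 6. Leaving out all cells with 1 or 2 such UMIs is therefore given below as an added alternative.

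Few as they were, the endoderm-factor cells supplied most transcripts of several genes. They made up 0.491% of the day 4 cells and 2.05% of the day 6 cells, and held 0.577% and 2.01% of all UMIs. Their share of a gene's UMIs was 74.0% (70.7 to 77.2) on day 4 and 75.7% (74.1 to 77.2) on day 6 for Lama1, and rose from 37.5% to 57.9% for Sparc, from 29.7% to 62.2% for Lamc1, from 19.97% to 49.0% for Lamb1 and from 23.1% to 65.4% for Nid1. For Nid2 it was 3.98% and 18.0%, for Hspg2 6.84% and 19.0%, for Lama5 1.14% and 3.88%, and for Fn1 0.695% and 1.61%, the last close to their share of all UMIs. They were the largest supplier of 3 genes on day 4 (Lama1, Lamc1 and Sparc) and of 5 on day 6 (Lama1, Lamb1, Lamc1, Nid1 and Sparc). These counts rest on the order of the rules: with the Dppa5a rule first, only 7 and 55 endoderm-factor cells were left, they were the largest supplier of 0 genes on both days, and their Lama1 share was 13.4% and 32.1%. The cells that moved were then counted as Dppa5a cells. The statement thus holds for all cells with at least 3 UMIs of Gata4, Gata6 and Sox17 together, taken as 1 group. It does not hold for those below the Dppa5a limit alone. For Lamc1 on day 4 the lead of the endoderm-factor cells over the Fgf5 cells was narrow. The intervals of the 2 shares overlapped (29.7%, 27.5 to 32.0, against 27.6%, 25.4 to 29.8).

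The remaining genes had other main sources. Fn1 came mostly from Dppa5a cells on day 4 (63.3%, 61.5 to 65.1) and on day 6 was spread over cells that met no rule (38.2%), Six6 cells (26.5%) and Dppa5a cells (23.1%). Dppa5a cells also held 50.7% of the Nid2 and 54.7% of the Nid1 UMIs on day 4, against 27.8% of all UMIs. Fgf5 cells were the first source of Lama5 and Hspg2 on day 4 (40.3% and 37.5%, beside 39.2% of all UMIs). On day 6 Six6 cells held 23.4% of the Lama5 and 17.3% of the Hspg2 UMIs, beside 31.2% of all UMIs, and Dppa5a cells held 12.5% and 20.4%, beside 9.53%.

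**Figure D4:**
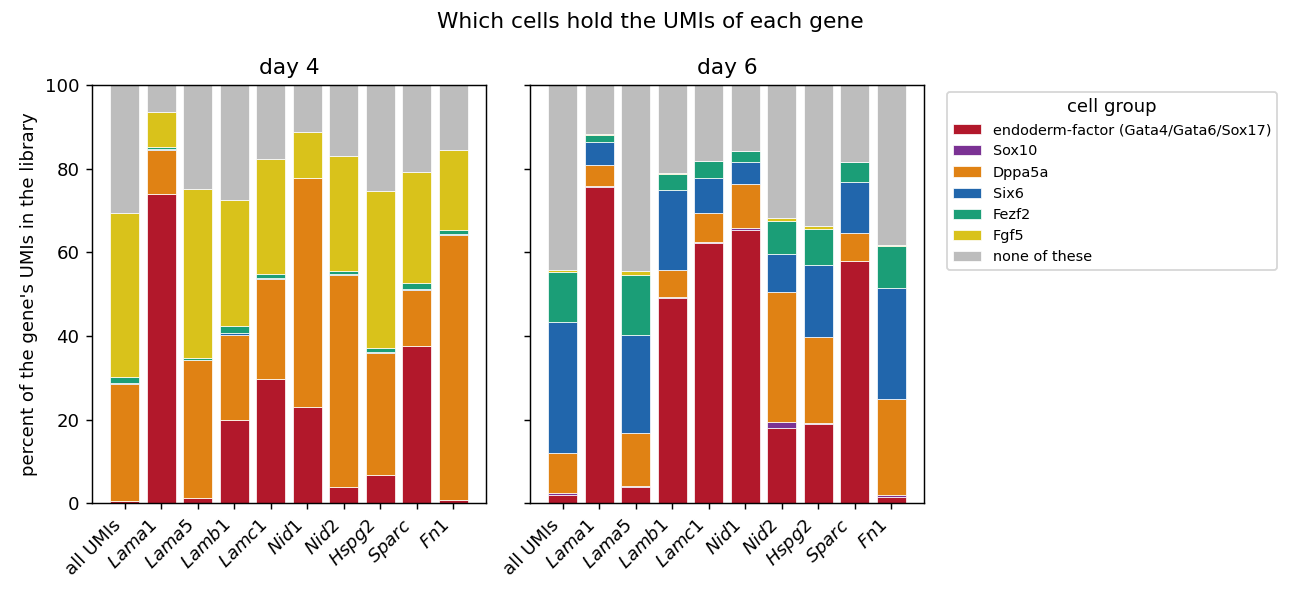
Share of each gene's UMIs held by each cell group, beside the share of all UMIs, on day 4 (left) and day 6 (right); each bar adds to 100%. The endoderm-factor part covers 74.0% and 75.7% of Lama1 but 0.695% and 1.61% of Fn1, and the Dppa5a part covers 63.3% of Fn1 on day 4.

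Because more endoderm-factor cells were present on day 6, the day comparison was repeated without them. Of 7 measured genes 1 was then higher (Sparc) and 1 lower (Nid2), beside 13.1% and 6.53% of all measured genes. Sparc stood at 81.4 and 154.8 CPM (ratio 1.90, 1.85 to 1.95) and Nid2 at 21.9 and 11.02 CPM (0.503, 0.466 to 0.544). Lamb1 (1.30, 1.23 to 1.38), Lamc1 (1.05, 0.965 to 1.14) and Fn1 (1.23, 1.17 to 1.30) were within the limit. Lama1 kept a ratio of 4.21 (3.58 to 4.96) but at 1.96 and 8.24 CPM. Read as a difference of CPM, the endoderm-factor cells accounted for 97.3% of the day 6 excess of Lamc1, 77.7% of that of Lamb1, 76.2% of Lama1, 69.4% of Sparc and 5.64% of Fn1. With the added alternative, which left out cells with 1 or 2 endoderm-factor UMIs as well, the ratio of Sparc was 1.63, that of Lamc1 0.902 and that of Lama1 3.26.

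Endoderm markers were also counted outside the endoderm-factor cells. The 10 endoderm markers summed to 14.2 to 20.2 CPM in the 4 other groups of at least 50 cells on day 4, and to 19.5 to 91.9 CPM in the 4 such groups on day 6, with the Dppa5a cells highest on each day. Where these UMIs came from was not tested. Scaling the endoderm-factor level of a gene by that sum gives a level to set each gene against. Lama1 lay at or below it in all 4 groups on both days (0.535 to 0.885 times it on day 4 and 0.610 to 0.956 times on day 6). In the 26 Fgf5 cells of day 6, a smaller group, Lama1 stood at 13.7 CPM on 5 UMIs, 1.45 times that level. Fn1 lay at 112 times that level or more, Lama5 at least 29.4 times, Hspg2 at least 8.38 times and Nid2 at least 6.66 times, so the levels of these 4 genes in the other groups were well above it. Lamb1 lay at 1.24 to 10.3 times, Lamc1 at 1.02 to 4.42 times and Sparc at 1.06 to 4.10 times that level. Nid1 was near it on day 6, at 1.08 to 1.45 times, and on day 4 ranged from 0 (Fezf2 cells) to 11.4 times (Dppa5a cells).

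Eye field cells of day 6 were set against the Fgf5 cells of day 4, since Fgf5 marks epiblast, a stage that comes before neural fates. Only 3 genes were measured in day 6 Six6 cells and day 4 Fgf5 cells, and all 3 were higher in the Six6 cells, beside 16.6% of all measured genes higher and 7.94% lower. Fn1 stood at 28.8 against 13.5 CPM (ratio 2.14, 1.92 to 2.40), Sparc at 139 against 87.6 CPM (1.59, 1.52 to 1.66) and Lamb1 at 31.1 against 19.7 CPM (1.58, 1.43 to 1.74). Centred on the median ratio of all genes, Fn1 alone kept its call. Below the level of 10 CPM, Nid2 stood at 3.83 against 15.9 CPM (0.241, 0.194 to 0.297), Hspg2 at 6.02 against 11.5 CPM (0.525, 0.436 to 0.629) and Lama5 at 7.26 against 12.7 CPM (0.570, 0.481 to 0.673). These 3 ratios were below 1 but at mean levels too low for a call.

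Forebrain cells were set against eye field cells on day 6, where Lamb1 was the only laminin chain measured. It stood at 17.1 CPM in Fezf2 cells and 31.1 CPM in Six6 cells (ratio 0.550, 0.466 to 0.646), whereas Sparc (1.02, 0.960 to 1.08) and Fn1 (0.972, 0.848 to 1.11) did not separate them. Lamb1 was the 1 lower gene of the 3 measured, and none was higher, beside 1.69% of all measured genes lower and 2.32% higher. At mean levels below 10 CPM, Lama5 stood at 11.6 against 7.26 CPM (1.59, 1.26 to 2.01) and Nid2 at 8.66 against 3.83 CPM (2.26, 1.69 to 3.02). Among the Fezf2 cells Lamb1 had stood at 30.4 CPM on day 4, and the day ratio was 0.564 (0.403 to 0.806) over 101 and 720 cells, on 43 UMIs on day 4 and 182 on day 6. It was the 1 call among the members, beside 5.7% of measured genes lower and 11.5% higher. In cells that met no rule the day ratio of Lamb1 was 1.06 (0.964 to 1.18), and there Fn1 (2.07, 1.85 to 2.31) and Sparc (1.69, 1.62 to 1.77) were the genes that were higher and none was lower, beside 12.7% and 5.52% of all measured genes.

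**Figure D5:**
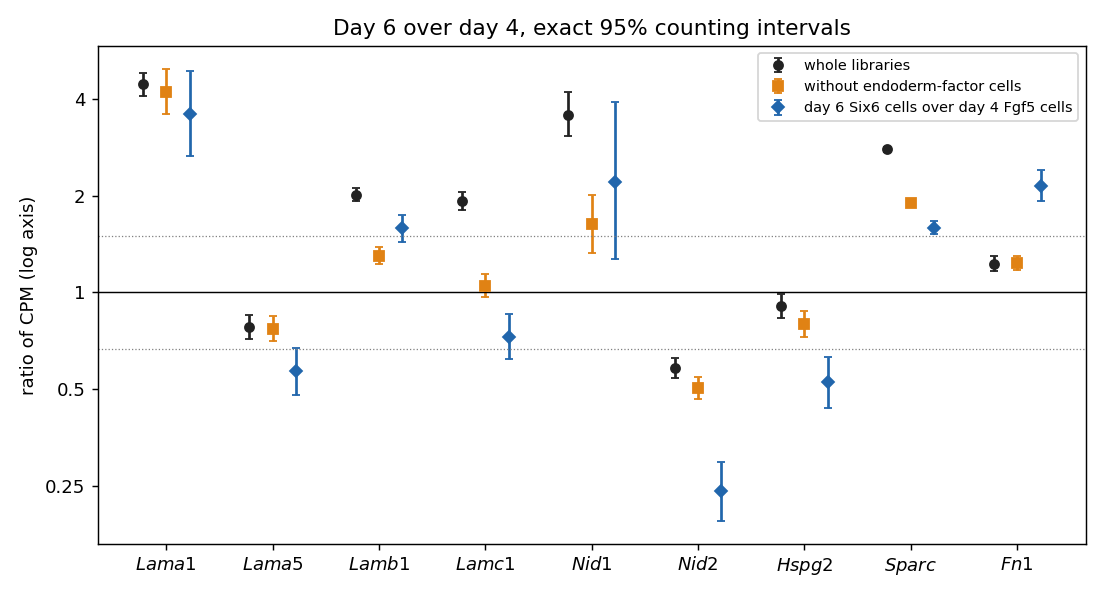
Ratio of CPM on a log axis with exact 95% counting intervals, for the whole libraries, for the libraries without endoderm-factor cells and for day 6 Six6 cells over day 4 Fgf5 cells; dotted lines mark the limits of 1.5 and its inverse. Lamb1, Lamc1, Nid1 and Sparc moved toward 1 without the endoderm-factor cells, whereas Nid2, Lama5 and Hspg2 lay below 1 in all 3 comparisons.

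Fibronectin and nidogen 2 transcripts were highest in pluripotency-marked cells, endoderm-factor cells aside. On day 4 Fn1 stood at 63.0 CPM in them and 13.5 CPM in Fgf5 cells (ratio 4.68, 4.24 to 5.17), and Nid2 at 41.2 and 15.9 CPM (2.60, 2.36 to 2.87), the 2 higher genes of 7 measured, with none lower, beside 6.5% and 9.1% of all measured genes. Nid1 stood at 4.22 and 0.594 CPM. Of the 2145 day 4 Dppa5a cells, 813 also met the Fgf5 rule. The Fgf5 cells are thus only those that met no earlier rule. After thinning, 25.3% (23.5 to 27.2) of the day 4 Dppa5a cells and 6.64% (5.76 to 7.61) of the Fgf5 cells held an Fn1 UMI, with median depths of 11909 and 12496 UMIs. The endoderm-factor cells, whose Fn1 level was between, held one in 15%.

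On day 6 the Dppa5a cells were higher than the Six6 cells for 6 of 7 measured genes and lower for none, beside 12.6% and 30.3% of all measured genes. Of the 6, Nid2, Hspg2, Lama1 (5.83 CPM) and Lamc1 (8.42 CPM) stood below 10 CPM in Six6 cells. They were measured only through the Dppa5a cells and could not have been called lower, so the count is no support of its own. Nid2 stood at 42.9 against 3.83 CPM (ratio 11.2, 8.99 to 14.1), Hspg2 at 23.3 against 6.02 CPM (3.87, 3.13 to 4.80) and Fn1 at 82.2 against 28.8 CPM (2.85, 2.57 to 3.16). These 3 ratios were 10.9, 3.79 and 2.91 when cells with 1 or 2 endoderm-factor UMIs were left out. Those of Lama1 and Sparc were not stable in that alternative: Lama1 went from 3.01 to 0.612 and Sparc from 1.82 to 0.899. Lamc1 went from 2.72 to 1.64 and Lamb1 from 1.16 to 0.666.

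Between the days, 5 of 8 measured genes were higher in Dppa5a cells and none was lower, beside 7.32% and 3.88% of all measured genes, while their endoderm marker sum, whose part in these ratios was not tested, went from 20.2 to 91.9 CPM. Sparc went from 62.4 to 252.6 CPM (ratio 4.05), Lama1 from 2.80 to 17.6 CPM (6.27), Lamb1 from 18.6 to 36.0 CPM (1.94), Hspg2 from 12.6 to 23.3 CPM (1.86) and Lamc1 from 14.1 to 22.9 CPM (1.63). Lama1 was measured here only through its day 6 level. Without cells that held 1 or 2 endoderm-factor UMIs only Sparc (2.39) and Hspg2 (1.86) were still higher by size at a measured level, and Lamb1 was at 1.20 and Lamc1 at 1.04. Nid2 (1.04, 0.921 to 1.17) and Fn1 (1.30, 1.19 to 1.43) were within the limit. Dppa5a cells made up 26.3% of cells on day 4 and 8.83% on day 6, and Fgf5 cells 35.7% and 0.392%. In the other groups with at least 50 cells on both days, Nid2 stood at 12.6 and 9.48 CPM (cells that met no rule) and 11.3 and 8.66 CPM (Fezf2 cells). The part of each in the lower Nid2 of the whole day 6 library was not tested.

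The rest of the basement membrane was read from lists of genes, in the whole libraries. None of 7 other laminin chains was measured. Over the days, 13.3% of all measured genes were higher and 6.28% lower. Of 18 other basement membrane components 6 were measured and 3 were higher on day 6. Col4a2 (ratio 4.49) and Col4a1 (3.85), the chains of the main collagen IV trimer, stood at 2021 and 2705 CPM in the day 6 endoderm-factor cells, which supplied 68.8% and 69.2% of them. Fbln1, a fibulin, also rose (3.73) but stood at 14.2 CPM in those cells and 45.9 CPM in Six6 cells. The agrin gene Agrn had a ratio of 1.39. Without the endoderm-factor cells Col4a2 (3.66) and Col4a1 (2.73) were still higher by size.

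Of 21 receptors 7 were measured and 2 were higher, beside the 13.3% of all measured genes. Bcam, a receptor for laminin α5, had a ratio of 1.92 and the syndecan gene Sdc1 of 1.81, and both were lower in endoderm-factor than in other cells on day 6 (0.331 and 0.190). The laminin-binding integrin gene Itga6 (0.715) and Sdc4 (0.788) were within the limit over the days. Of 15 folding and secretion genes 11 were measured and 5 were higher, again beside 13.3%, among them the collagen chaperone gene Serpinh1 (3.09) and the prolyl hydroxylase genes P4ha1 (1.71) and P4ha2 (1.62). In the day 6 endoderm-factor cells 13 of 14 measured genes of that list were higher than in other cells and none was lower, beside 29.1% and 21.7% of all measured genes, with Serpinh1 at 1876 CPM (ratio 18.6). Some of the 14 stood below 10 CPM in the other cells and were measured only through the endoderm-factor cells. They could not have been called lower, so that count is no support of its own. Of 16 proteases and inhibitors 4 were measured and 3 were higher, beside 13.3%: Timp3 (2.89), Timp2 (1.84) and the cathepsin gene Ctsl (1.82), while Serpine2 had a ratio of 1.49. No measured gene of these lists was lower by size over the days. At mean levels below 10 CPM, the integrin gene Itgb5 stood at 8.98 and 3.83 CPM (ratio 0.426, 0.375 to 0.484) and the metalloprotease inhibitor gene Timp1 at 11.2 and 5.50 CPM (0.493, 0.442 to 0.549).

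Likeness to other genes was described by Pearson's r of log2(CPM + 1) over the 9 groups of at least 50 cells on either day, of which only 1 was made of endoderm-factor cells, so that an r near 1 mostly says that both genes were high there. Lama1 was most like Col4a2 (0.999), Sparc most like Col4a1 (0.995), Lamc1 most like Spns2 and then Gata4 and Gata6 (0.997 each), of which Gata4 and Gata6 had chosen the cells. Lamb1 was most like Derl2 (0.996) and Nid1 most like Apom (0.997). Fn1, whose profile peaked in Dppa5a cells, was most like Psme2 (0.970).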

How the data were processed

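The deposited files hold raw UMI counts per gene and barcode, which the authors made from 10x Genomics Chromium 3′ v2 reads on the mouse build mm10, with no normalization. Of tools, the submitters' notes list Cell Ranger (2.0.1) and Seurat (2.3.4), and the methods text gives newer versions of them. Depth is known, and the exact intervals show the precision it gives. Cells were kept by the stated filter: 500 to 5000 genes, 500 to 26000 UMIs, at most 10% mitochondrial, at least 20% ribosomal protein and at most 0.5% haemoglobin counts. This kept 89.4% and 89.2% of 9114 and 7446 barcodes, fewer barcodes than the cell numbers the study states. No doublet caller was run, and cells meeting several rules were left out as an alternative. Free RNA was not removed.

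Intervals are exact: Poisson for CPM of summed cells, conditional binomial for ratios and Clopper-Pearson for shares (Python 3.11.15, NumPy 2.4.6, SciPy 1.17.1, pandas 2.3.3, Matplotlib 3.10.9). The ratios were tried on simulated Poisson counts, the model that the intervals assume, so this trial cannot show the effect of spread between cells or experiments. Named were all members, up to 4 measured genes per list, those farthest from no change on the log2 scale between the days, and genes among the 3 most like each member that reached 20 CPM in a group; 1 gene that this rule names is not reported here. Members, lists and groups were chosen with earlier results of these data known. Comparisons of Dppa5a, Fezf2 and unmarked cells were described with the same limits. Alternatives changed the cell filter, totals, centring, weighting of cells, thinning, fold limit, thresholds and rule order.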

Additional observations from a re-analysis of the deposited data

Results flagged for a closer look

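Lamb1 was singled out because its day 6 over day 4 ratio was higher by size in one cell group and lower in another, among the 3 cell groups that held at least 50 cells on both days. The ratio was 1.94 in Dppa5a cells and 0.564 in Fezf2 cells, and the difference between these ratios was not tested, since each day has 1 library. In Dppa5a cells the ratio was 1.20 when cells with 1 or 2 endoderm-factor UMIs were left out.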

How the results depend on the processing

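No paired analysis was possible because each day has 1 library, and with 1 library per day no replicate could be left out. Of 212 counts of called members under alternatives, 189 stayed within 1.5 times of the reported count. With all deposited barcodes, 2 members were lower in Six6 than in Fgf5 cells (0 reported) and 3 were higher in Dppa5a cells between the days (5 reported). The Six6 against Fgf5 count of lower members was 2 with the mean over cells and with stricter thresholds, and 1 with looser thresholds, without cells under 0.5% mitochondrial counts and without cells that held 1 or 2 endoderm-factor UMIs. Its count of higher members was 1 after centring on the median gene and 1 at a 2-fold limit. At that limit 0 members were lower between whole libraries, 0 were higher and 0 lower without endoderm-factor cells, and 2 were higher in Dppa5a cells between the days. Looser thresholds gave 3 of the latter, and leaving out cells with 1 or 2 endoderm-factor UMIs gave 2. Without endoderm-factor cells, stricter thresholds gave 2 higher members and the Dppa5a rule first gave 3. The Dppa5a rule first also gave 6 members higher in Dppa5a than in Fgf5 cells on day 4, and 0 members on day 4 and 0 on day 6 for which endoderm-factor cells were the largest supplier. With cells that met exactly 1 rule the latter count was 1 on day 4. Leaving out cells with 1 or 2 endoderm-factor UMIs, which was chosen after seeing the data, gave 1 member lower in Dppa5a than in Fgf5 cells (Sparc, 0.599) and 1 lower than in Six6 cells (Lamb1, 0.666). It also turned the Dppa5a over Six6 ratios of Lama1 to 0.612 and of Sparc to 0.899. The day 4 ratio of Lama5 in endoderm-factor cells turned to 0.954 with cells that met exactly 1 rule and to 0.891 with the Dppa5a rule first, both of which left 7 such cells.

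Between whole libraries Lama1, Lamb1 and Sparc kept their calls in all 8 alternatives. In endoderm-factor against other cells, the 7 higher members other than Lama5 kept theirs in all 12 on both days. Depth limited the genes below 10 CPM, above all Nid1 outside the endoderm-factor cells. The cells of the 3 pooled experiments cannot be told apart, so their spread is unknown. The comparisons of Dppa5a cells were added after seeing the data.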

Other observations

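The 25 Sox10 cells of day 6 had a make-up of their own among the small groups. Nid2 stood at 38.7 CPM in them, near the 42.9 CPM of Dppa5a cells and above the 3.83 CPM of Six6 cells, on 17 UMIs. Lamc1 stood at 18.2 CPM on 8 UMIs and Lamb1 at 16.0 CPM on 7 UMIs. Sparc stood at 34.2 CPM on 15 UMIs, the lowest Sparc level of any group on either day.

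The 26 Six6 cells of day 4 already held Sparc at 150.0 CPM (112.7 to 195.8), and day 6 Six6 cells held it at 139 CPM. Fn1 in the same cells stood at 16.7 CPM (6.12 to 36.3) on day 4 and 28.8 CPM on day 6. Their Lama5 count was 0 on day 4, which allows up to 8.34 CPM (3 counts).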
